A study of Mus musculus with 31 samples.

Results

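The effect of 2 Met alleles of Bdnf on the heart transcriptome was compared between female and male mice, as the Met/Met minus Val/Val difference in females minus the same difference in males. The comparison uses 21 of the 31 whole hearts that were sequenced, namely 5 male Val/Val, 4 male Met/Met, 6 female Val/Val and 6 female Met/Met hearts. Sex and genotype were taken from the sample labels. The other 10 hearts, of Val/Met mice, entered the fit to estimate the spread and are given as a reference where a result turns on them. All mice were 8 weeks old, and the labels list the hBDNF transgene for every heart, Val/Val included. No drug or surgery is given for any group. Per the study's methods, the mice came from heterozygous breeders, with littermates used wherever possible, and the study lists as a limit of the model that a mutated human BDNF was compared with mouse BDNF in the control mice. The strain background and the time of day at which hearts were taken are not given in the sources used here.

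BDNF is a secreted neurotrophin that binds the receptor TrkB, and in the brain the Met form is sorted and released less efficiently. The heart expresses both BDNF and truncated TrkB. The cardiac clock is a feedback loop in which BMAL1, the product of Arntl, pairs with CLOCK or NPAS2 and switches on E-box genes, among them the Per, Cry and Nr1d genes and Dbp. PER, CRY and REV-ERB proteins (the products of Nr1d1 and Nr1d2) then repress the loop, and NFIL3 competes with DBP, TEF and HLF at D-box sites. Antigen presentation is a separate system, in which interferon gamma raises the heavy chains of MHC class I, their partner B2m, the immunoproteasome that cuts the peptides, and MHC class II.

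Values are the authors' normalized gene counts, which are not whole reads. The median gene lay between 471 and 479 in every heart, and the quartiles were nearly the same in all of them. The reads behind a value are unknown, so precision comes from the spread between hearts. The labels place the hearts in 3 library sets. Male Met/Met hearts came from the first set (3 hearts) and the second (1 heart), and female Met/Met hearts from the first (3 hearts) and the last (3 hearts). Within each group the sets had equal mean log2 values for every gene, to within 1.22e-05. Hearts that share a group and a set therefore balance each other around the group mean, and a heart alone in its group and set, such as male Val/Val replicate 3 and male Met/Met replicate 4, equals the group mean. A set difference cannot be told apart from a group difference in such values, and an effect computed in the first set alone has the same size as the pooled one. The fit had 1 mean per group and set, which leaves 17 residual degrees of freedom, and group effects are averages over hearts. A lone heart brings no spread of its own but counts as 1 heart in that average, which makes the SE smaller. It also lies within the range of its group, so it adds nothing to a statement that male genotypes do not overlap. The X-linked genes Kdm6a, Eif2s3x and Kdm5c, which escape inactivation, were higher in every female than in every male heart, while Ddx3x overlapped slightly. These checks were chosen after the data were seen. Sample markers were those of whole hearts. In limma 0 of the 8 cardiomyocyte markers differed at p under 0.05 in the comparison of effects, beside 14.4% of all genes. In the male effect alone 1 of the 8 was higher (Myh6, 0.19) and 1 lower (Pln, -0.26) at that threshold.

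Of 13840 genes, the 13733 with a mean of at least 29 deposited units were tested. The Met/Met effect differed between the sexes at an unadjusted p under 0.05 in 1975 genes (14.4%), with the female effect higher in 816 (5.94%) and lower in 1159 (8.44%). A further requirement of a 1.5-fold difference left 486 called genes (3.54%), with 272 (1.98%) in the first direction and 214 (1.56%) in the second. With no limit on fold, 31 genes (0.226%) had an adjusted p under 0.05, a count that moved between 10 and 45 when single hearts were left out. Without male Val/Val replicate 1, male Met/Met replicate 1 or female Met/Met replicate 2 the 486 became 807, 741 and 799. The called genes were divided by the effect within each sex. In 53 the effects were opposite, with p under 0.05 in both sexes. In 125 the female effect alone had such a p (female-led below), in 180 the male effect alone (male-led), and in 128 neither. In what follows a gene is said to have risen or fallen in a sex where the p of that sex's effect was under 0.05. By that measure 1443 genes (10.5%) changed in female Met/Met hearts, 557 up (4.06%) and 886 down (6.45%), and 1385 (10.1%) in males, 907 up (6.6%) and 478 down (3.48%). All log2 values below are differences, and all p-values come from limma with 2-sided tests. Protein-coding genes made up 283 of the 486 called genes (58.2%), against 86.1% of all genes tested. The gap between the sexes, without regard to sign, was larger in Met/Met than in Val/Val hearts in 350 of the 486 (72.0%) and in 65.1% of all genes tested, and among the 31 genes it was larger in 14 and smaller in 17.

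**Figure D1:**
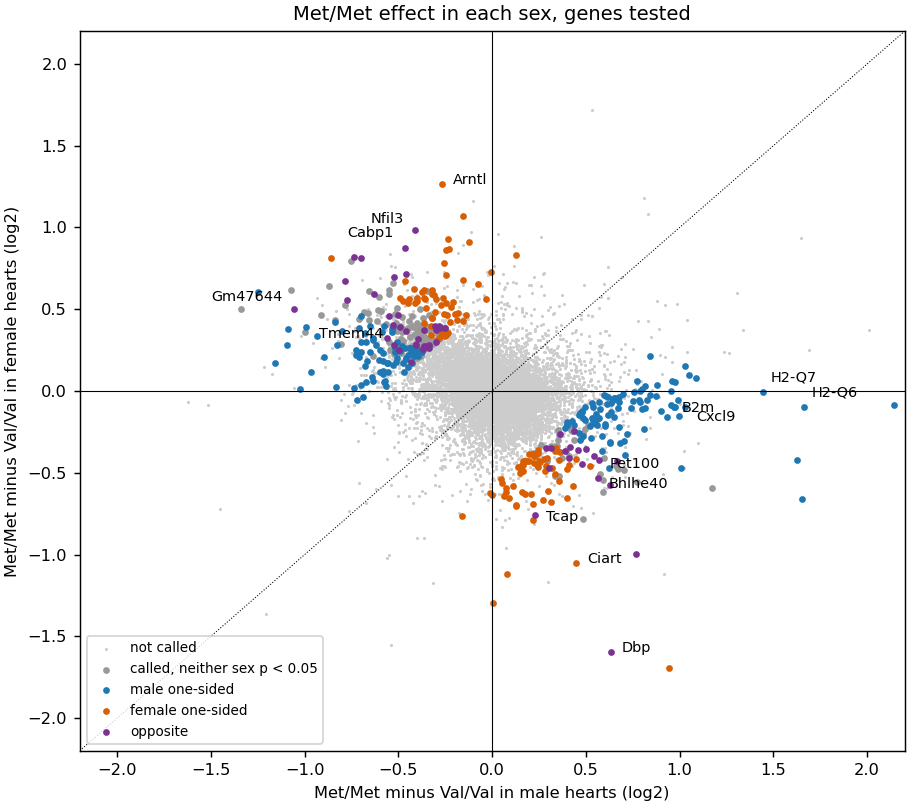
Each point is a gene tested, with the male Met/Met minus Val/Val difference on the horizontal axis and the female difference on the vertical axis (log2), colours marking the classes of the 486 called genes (one-sided stands for female-led and male-led) and the dotted line equal effects. Dbp, at -1.59 in females and 0.64 in males, lies far from the dotted line, the 53 opposite genes fill the upper left and lower right, and H2-Q6 and B2m lie to the right near 0 on the female axis. The axes leave out 5 genes.

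Genes of the circadian clock gave the clearest response that differed by sex. All 22 members of the clock list were tested, and in 16 (72.7%) the Met/Met effect differed between the sexes, beside 14.4% of all genes. In 5 the female effect was higher and in 11 it was lower. Female Met/Met hearts had 6 clock genes higher and 13 lower than female Val/Val hearts, beside 4.06% and 6.45% of all genes. In males 2 rose and 1 fell, beside 6.6% and 3.48% of all genes. The median over the list was -0.43 for the comparison of effects, -0.32 in females and 0.06 in males, and over all genes tested these medians were -0.03, -0.01 and 0.00.

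Dbp (chr7:45705088-45710203 on GRCm38), a D-box activator and an output of the clock, had the smallest p of all genes. Its 6 female Val/Val hearts had from 3640 to 4368 normalized counts with a median of 3911, and its 6 female Met/Met hearts from 1107 to 1502 with a median of 1325. In males the 5 Val/Val hearts had 862, 1169, 1004, 1107 and 910 normalized counts, and the 4 Met/Met hearts 1216, 2026, 1538 and 1559. The genotypes overlapped in neither sex, and they moved in opposite directions, down in females and up in males. Over all genes tested, genotypes did not overlap in 2.01% of genes in females and 7.67% in males. In males 1 heart of each genotype equals its group mean and cannot bring overlap, here and at the genes below. The log2 effect was -1.59 (SE 0.115) in females and 0.64 (SE 0.134) in males, a difference of -2.23 (SE 0.176, adjusted p = 3.42e-07). The gap between the sexes, female minus male, was 1.98 in Val/Val and -0.25 in Met/Met hearts. The 6 female Val/Val hearts thus lay above the other hearts of the comparison, and female Met/Met hearts overlapped with both male genotypes.

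The activators of the loop and the D-box repressor moved the other way. Arntl (chr7:113207465-113314126) had 142 to 179 normalized counts in female Val/Val hearts (median 159) and 285 to 442 in female Met/Met hearts (median 398). Male Val/Val hearts had 497, 261, 360, 334 and 388, and male Met/Met hearts 330, 248, 329 and 299. The female genotypes did not overlap and the male genotypes did. The effect was 1.26 (SE 0.203) in females and -0.27 (SE 0.236) in males, and the difference of 1.53 (SE 0.312) had an adjusted p of 0.0408. Nfil3 (chr13:52967209-52981073) had 128 to 188 normalized counts in female Val/Val (median 157) and 243 to 375 in female Met/Met hearts (median 315). In males it had 489, 317, 393, 398 and 389 in Val/Val and 319, 246, 328 and 295 in Met/Met hearts. It rose in females without overlap, by 0.98 (SE 0.133), and fell in males with overlap, by 0.41 on the log2 scale (SE 0.155), and these effects differed by 1.40 (SE 0.204, adjusted p = 0.00276). Npas2, Clock and Cry1 also had a higher effect in females, by 0.64, 0.78 and 0.73, with adjusted p-values of 0.131, 0.188 and 0.094. Each of them rose in females, and none passed in males.

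Among the repressors and outputs, Bhlhe40 (chr6:108660629-108666925), a repressor that binds E-boxes, was an opposite gene like Dbp. Female Val/Val hearts had 1951 to 2419 normalized counts (median 2037) and female Met/Met hearts 1253 to 1710 (median 1484), without overlap. Male Val/Val hearts had 1263, 1217, 1240, 1478 and 1040 and male Met/Met hearts 1470, 2108, 1996 and 1836, which overlapped at a single heart of each genotype. Its effects of -0.53 and 0.57 differed by -1.10 (SE 0.166, adjusted p = 0.00276). Tef, a partner of Dbp at D-boxes, fell by 0.59 on the log2 scale in females and changed by 0.07 in males (difference -0.66, SE 0.131, adjusted p = 0.0408). Nr1d1, which encodes REV-ERB alpha, had 3686 to 4339 normalized counts in female Val/Val and 1554 to 3459 in female Met/Met hearts. Its difference between the sexes was -0.82 (SE 0.231, adjusted p = 0.134).
The remaining genes with a lower effect in females at an unadjusted p under 0.05 were Per2 (-0.71), Per3 (-0.74), Cry2 (-0.37), Hlf (-0.45), Bhlhe41 (-0.41), Ciart (-1.50) and Usp2 (-0.53), and each fell in females alone. Per1 and Nr1d2 fell in females with differences between the sexes of -0.64 and -0.56 that did not pass. Rora, Csnk1d and Csnk1e had differences between -0.13 and 0.05 that did not pass either. In Val/Val hearts the female minus male gap was 0.76 for Bhlhe40, 0.69 for Nr1d1, -1.18 for Arntl and -1.33 for Nfil3, and in Met/Met hearts it was -0.33, -0.13, 0.35 and 0.06. Val/Val females thus stood apart from the males at these 4 genes, and Met/Met females lay near the male levels.

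Val/Met hearts share the Val/Val controls, so their values are given only beside the others. For the clock list, 0 of 22 genes passed in the same comparison of Val/Met effects between the sexes by limma at an unadjusted p under 0.05 (1.91% of all genes did). Dbp ranged from 3451 to 3807 normalized counts in the 4 female Val/Met hearts and from 712 to 1018 in the 6 male ones. Each range was close to that of the Val/Val hearts of the same sex.

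**Figure D2:**
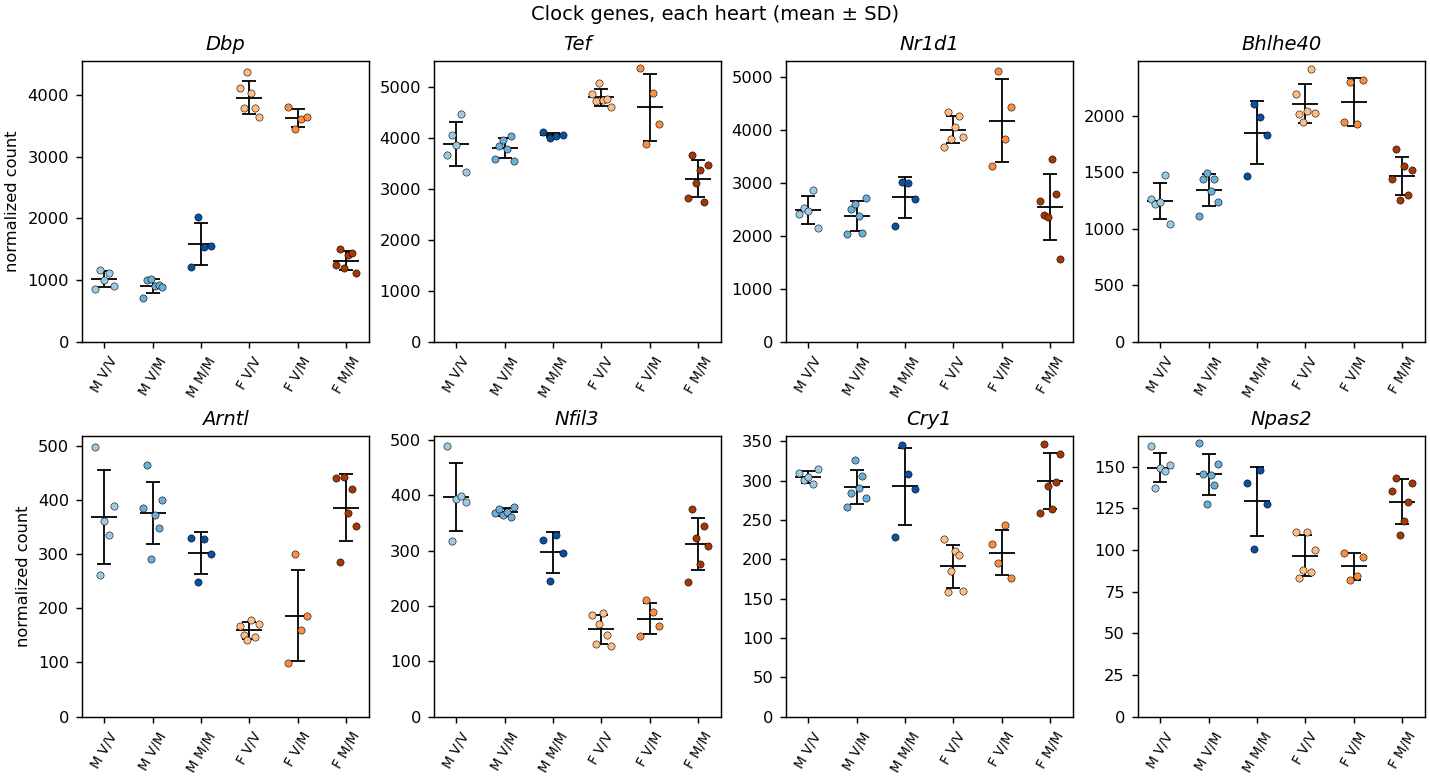
Normalized counts of 8 clock genes in each of the 31 hearts (M male, F female, V/V Val/Val, V/M Val/Met, M/M Met/Met), with the mean and SD of each group as a line and bar. In female Met/Met hearts Dbp, Tef, Nr1d1 and Bhlhe40 lie below the female Val/Val hearts, while Arntl, Nfil3, Cry1 and Npas2 have higher group means, and the male groups lie closer together.

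Promoter sequence is shown for clock genes because the factors of the loop act through known motifs. RefSeq promoters on GRCm38.p6 (250 bases before to 50 after a start site) were found for 14 of the 16 clock genes with a difference, giving 18 promoters. The motif of REV-ERB factors was searched as TAGGTCA on both strands. It was in the promoters of Arntl and Nfil3 (2 of 18, 11.1%), both of which rose in females, and in 2.61% of all 32851 promoters. The E-box, searched as CACGTG, was in 5 of 18 promoters (27.8%), those of Tef (at both start sites), Ciart, Bhlhe41 and Cry1, and in 7.15% of all promoters. Of these genes Tef, Ciart and Bhlhe41 fell in females and Cry1 rose. The D-box TTATGTAA was in 1 promoter, of Per3, and in 0.938% of all. Matches of different motifs overlapped in 8 of all promoters. Capitals mark the motif in the sequences, which are read 5′ to 3′ on the gene's strand. TGACCTA is TAGGTCA read on the other strand, and the match in Arntl begins at base 31 after the start site.
Arntl, chr7:113207530-113207559, plus strand: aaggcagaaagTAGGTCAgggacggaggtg
Nfil3, chr13:52981040-52981091, minus strand: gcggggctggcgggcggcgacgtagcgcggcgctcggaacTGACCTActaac
Cry1, chr10:85185069-85185154, minus strand: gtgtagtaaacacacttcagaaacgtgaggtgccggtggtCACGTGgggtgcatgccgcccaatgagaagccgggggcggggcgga
Tef, chr15:81802506-81802591, plus strand: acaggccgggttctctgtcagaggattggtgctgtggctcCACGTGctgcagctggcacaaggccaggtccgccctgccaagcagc
Ciart, chr3:95882229-95882384, minus strand: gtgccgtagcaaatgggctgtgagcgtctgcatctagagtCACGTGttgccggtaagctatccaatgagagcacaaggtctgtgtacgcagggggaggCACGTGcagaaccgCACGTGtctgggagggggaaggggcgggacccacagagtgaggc
A match of these letters is a description of the sequence and not a measured binding site.

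Outside the clock, Tcap (chr11:98383811-98384953), which encodes telethonin, the cap of titin at the Z-disc, had the smallest p after Dbp. Female Val/Val hearts had 21310 to 27570 normalized counts (median 24360) and female Met/Met hearts 13690 to 14870 (median 14350). Male Val/Val hearts had 11211, 13709, 12397, 12999 and 11823, and male Met/Met hearts 12343, 17440, 14224 and 14521. Tcap fell in every female Met/Met heart below every female Val/Val heart, and the male genotypes overlapped. The effects were -0.76 (SE 0.0805) and 0.23 (SE 0.0936), a difference of -0.99 (SE 0.123, adjusted p = 0.000521). Its gap between the sexes was 0.97 in Val/Val and -0.02 in Met/Met hearts. Of the 25 sarcomere genes, Tcap, Tnnc1, Lmod2 and Myl2 had a lower and Xirp2 a higher effect in females, and 20 did not pass.

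Cabp1 (chr5:115168689-115194381), a neuronal calcium sensor related to calmodulin, was the mirror image. Female Val/Val hearts had 52.0 to 74.3 normalized counts and female Met/Met hearts 107 to 126. In males the Val/Val hearts had 119, 120, 120, 108 and 133 and the Met/Met hearts 101, 82.6, 78.1 and 86.6. The genotypes did not overlap in either sex, and the effects of 0.87 and -0.47 differed by 1.34 (SE 0.198, adjusted p = 0.00276). Other genes with a rise in females, a fall in males and an adjusted p under 0.05 were Tmem44 (0.28 and -0.52), Tmtc2 (0.18 and -0.43), Atpsckmt (0.27 and -0.35), Dnm3, a dynamin (0.39 and -0.49), and Gm47644, a sense intronic transcript (0.50 and -1.06). Below the fold limit, Cald1, which encodes the actin-binding protein caldesmon, followed the same direction (0.15 and -0.29). Ypel2 (0.39 and -0.25) and Rel, a subunit of NF-kappa B (0.37 and -0.30), were opposite at adjusted p-values of 0.0675 and 0.0856. Pet100, an assembly factor of cytochrome c oxidase, fell in females by 0.42 on the log2 scale and rose in males by 0.57 (difference -0.99, SE 0.205, adjusted p = 0.0408).

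Female-led genes with an adjusted p under 0.05 outside the clock were Stc2, Pik3ip1 and Tcp11l2. Stc2, a secreted glycoprotein, had 818 to 919 normalized counts in female Val/Val and 534 to 615 in female Met/Met hearts. Male Val/Val hearts had 584, 590, 587, 662 and 520 and male Met/Met hearts 558, 667, 531 and 583. The female genotypes did not overlap and the male ones did. The effect was -0.63 (SE 0.0801) in females and -0.01 (SE 0.0931) in males, and the difference of -0.62 had an adjusted p of 0.0408. Pik3ip1, an inhibitor of PI3 kinase, fell by 0.63 on the log2 scale in females and changed by 0.17 in males (difference -0.81, SE 0.153, adjusted p = 0.0357), and Tcp11l2 had effects of -0.69 and 0.22 (difference -0.90, SE 0.179, adjusted p = 0.0408). Under the fold limit but with an adjusted p under 0.05 were Sesn1 (a sestrin, -0.48), Gabarapl1 (an autophagosome protein, -0.51), Flcn (folliculin, -0.49), Npc1 (the lysosomal cholesterol transporter, -0.41), Arrdc3 (-0.50) and Hbp1 (-0.35). All of these fell in females, and Flcn and Npc1 also rose in males. Art1, Fn3k, Tcea3, Zfp46 and Gstp-ps, the last a processed pseudogene and thus uncertain, had differences between -0.57 and -0.35. These 31 genes are otherwise accounted for by Yy2, Rpl35 and Gm4149, described among the male-led genes. Glucocorticoid targets, which overlap the clock list at Per1, had 7 of 19 genes lower and 0 higher in female Met/Met hearts. Klf15 (-0.46), Mt2 (-0.79) and Nfkbia (-0.44) were among the 7, and 6.45% of all genes fell in females. In the comparison of effects 3 of the 19 were lower (15.8%), beside 8.44% of all genes.

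In males the Met/Met response was led by antigen presentation. The male Met/Met hearts had 11 of 15 MHC class I genes past that threshold, 10 higher and 1 lower, and all 8 class II genes that could be tested higher, out of 11 on the list. Female Met/Met hearts had 1 class I gene higher and 0 class II genes on either side. The effects differed between the sexes in 8 of 15 class I genes, 7 with the female effect lower, and in 5 of 8 class II genes, all lower. Over all genes tested, 6.6% rose in males, 4.06% rose in females and 8.44% had a lower female effect. Median differences were -0.62 for class I and -0.88 for class II. No gene of either list had an adjusted p under 0.05 for this difference.

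B2m (chr2:122147686-122153083), the light chain shared by class I molecules, had 2987, 1872, 2365, 2520 and 2220 normalized counts in male Val/Val hearts and 4179, 4358, 5281 and 4582 in male Met/Met hearts. Female Val/Val hearts had 2511 to 3264 (median 3033) and female Met/Met hearts 2363 to 3573 (median 2579). The male genotypes did not overlap and the female genotypes did. The effect was 0.95 (SE 0.186, adjusted p = 0.0423) in males and -0.08 (SE 0.16) in females, and the difference was -1.04 (SE 0.245, adjusted p = 0.0876). H2-Q6, a class I gene of the Q region, had 216, 113, 156, 153 and 159 normalized counts in male Val/Val and 383, 428, 738 and 494 in male Met/Met hearts. In females it had 153 to 318 in Val/Val and 167 to 355 in Met/Met hearts. The male effect was 1.66 (SE 0.302) without overlap, the female effect -0.10 (SE 0.26), and the difference -1.77 (SE 0.399, adjusted p = 0.0769). H2-Q7 (-1.45), H2-Q4 (-0.88), H2-K1 (-0.87), H2-T22 (-0.84) and H2-D1 (-0.66) followed. H2-Q6 and H2-Q7 are near-identical copies, and reads of one may have been assigned to the other, so their separate values are uncertain. Pdia3, the chaperone of the loading complex, went the other way, up by 0.16 in females and down by 0.19 in males.

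For class II, Cd74, the invariant chain, had 1621, 1161, 1372, 1633 and 1152 normalized counts in male Val/Val and 2825, 2266, 3070 and 2699 in male Met/Met hearts. Female Val/Val hearts had 897 to 1776 and female Met/Met hearts 902 to 2312, so only the male genotypes were apart. The difference was -0.92 (SE 0.372, adjusted p = 0.283). H2-Aa (-0.95), H2-Ab1 (-0.88), H2-Eb1 (-0.90) and the lysosomal protease Ctss (-0.78) also passed, and H2-DMa, H2-DMb1 and Ciita, the transactivator of the class, did not. Of 26 interferon gamma response genes tested, 18 rose in male Met/Met hearts (6.6% of all genes did) and 2 in female Met/Met hearts (4.06%). Against 8.44% of all genes, the female effect was lower than the male one in 9 of the 26 (list median -0.43). They comprise the chemokine Cxcl9 (-1.13, SE 0.259), the guanosine triphosphatases Igtp (-1.01), Irgm2 (-0.92) and Irgm1 (-0.50), the immunoproteasome subunits Psmb9 (-0.85), Psmb8 (-0.71) and Psmb10 (-0.42), and the proteasome activators Psme2 (-0.59) and Psme1 (-0.42). Cxcl9 had 64.6, 54.2, 59.2, 53.6 and 65.3 normalized counts in male Val/Val and 111, 107, 148 and 121 in male Met/Met hearts. Psmb8 had 182, 135, 157, 185 and 133 in male Val/Val and 260, 270, 273 and 268 in male Met/Met hearts. Neither gene overlapped between the male genotypes, and both overlapped in females. The interferon alpha list had 3 of 30 genes, Isg15 and Irf9 among them, with a lower female effect, a share near the 8.44% of all genes, and 8 higher in male Met/Met hearts. Complement had 3 of 19 (15.8%), namely C2, C3 and C4b, with differences of -1.33, -0.81 and -1.15. Isg15 lost p under 0.05 in 3 of 21 fits with a heart left out, Irf9 in 5 and C3 in 8.

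Markers of immune cells moved in part with these genes. All 10 macrophage markers had a negative difference, with a median of -0.38 and a range from -0.675 to -0.029. In the comparison of effects 0 of the 10 passed, beside 14.4% of all genes, and 2 (Adgre1 and Fcgr1) rose in male Met/Met hearts. Their summed level ranged from 6574 to 12050 normalized counts in male Val/Val and from 9331 to 12180 in male Met/Met hearts, and from 6685 to 9476 and 6630 to 10600 in the female groups, which overlap in both sexes. Of 10 markers of T and NK cells, Cd4 alone was in the table, with 16.5 to 48.4 normalized counts in male Val/Val and 50.7 to 65.7 in male Met/Met hearts, and a difference of -1.04. Cd3e, Cd8a and the other 7 were not analysed here. Neutrophil, lung and thymocyte markers were not analysed here either, and of 8 B cell markers 1 could be tested and did not pass. The part of immune cells in the result was not tested. In whole hearts more cells of a type and more RNA per cell cannot be told apart.

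The Val/Met hearts again share the Val/Val controls. In female Val/Met hearts 5 of 15 class I genes and 7 of 26 interferon gamma genes were higher than in Val/Val (2.08% of all genes were), against 1 and 0 in male Val/Met hearts (1%). The female values came from part of the hearts, since B2m was 4993 and 5556 in replicates 2 and 6 and 2954 and 2655 in replicates 1 and 5. Replicates 1 and 2 share one library set and replicates 5 and 6 another, so each high heart is paired with a low heart of its set.

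**Figure D3:**
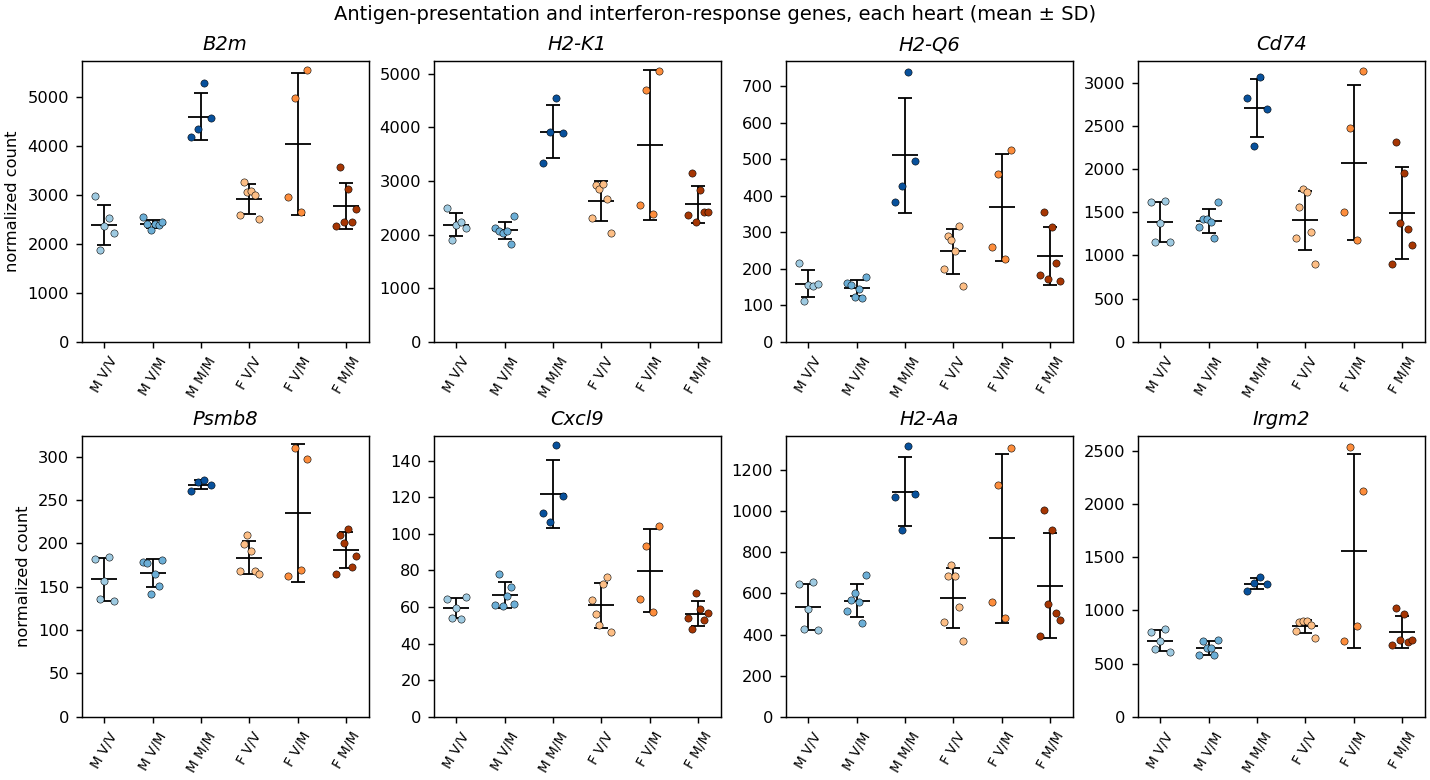
Normalized counts of 8 antigen-presentation and interferon-response genes in each of the 31 hearts (labels as for the clock genes), with group mean and SD. Male Met/Met hearts lie above all male Val/Val hearts at each gene, female Val/Val and Met/Met hearts overlap, and female Val/Met hearts fall into a high and a low pair.

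Promoters are shown for some of these genes because interferons act through a known motif. The core of the interferon-stimulated element was searched on both strands as TTTC and TTTC with 2 bases between them, and 3.44% of all promoters hold it. It was in 4 of 10 promoters of the interferon gamma genes with a difference, in 2 of 9 for class I (22.2%) and in 1 of 3 for class II (33.3%). Capitals mark it, and GAAA at the left end means that it is read on the other strand. Igtp and Irgm2 are neighbouring members of one family, and their stretches are nearly alike.
B2m, chr2:122147508-122147597, plus strand: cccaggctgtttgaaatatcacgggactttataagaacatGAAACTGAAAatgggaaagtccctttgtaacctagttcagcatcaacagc
H2-T22, chr17:36042884-36042973, minus strand: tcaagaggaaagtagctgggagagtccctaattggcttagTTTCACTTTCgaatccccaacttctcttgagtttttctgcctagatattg
Igtp, chr11:58199482-58199555, plus strand: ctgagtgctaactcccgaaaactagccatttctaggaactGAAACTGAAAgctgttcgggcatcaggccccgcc
Irgm2, chr11:58214873-58214962, plus strand: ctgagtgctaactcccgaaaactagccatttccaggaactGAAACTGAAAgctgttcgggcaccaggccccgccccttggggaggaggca
Ctss, chr3:95526725-95526785, plus strand: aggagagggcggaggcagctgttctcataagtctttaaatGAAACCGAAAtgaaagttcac

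Another male-led gene was Yy2 (chrX:157566119-157568985), a retroposed relative of the transcription factor Yy1. Male Val/Val hearts had 18.1, 96.4, 41.8, 50.6 and 34.4 normalized counts and male Met/Met hearts 6.35, 3.75, 3.95 and 4.55. Female Val/Val hearts had 27.6 to 48.3 and female Met/Met hearts 27.9 to 79.7. All 4 male Met/Met hearts were below the other hearts of these groups, and the difference of 3.61 (SE 0.546) had an adjusted p of 0.00276. Yy2 lies within an intron of Mbtps2 and resembles Yy1, so its reads may be shared with other loci.

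Ribosomal and mitochondrial proteins formed a second male-led group, with smaller changes. Of 39 cytosolic ribosomal protein genes tested, 24 rose and 1 fell in male Met/Met hearts and 0 passed in females. The effect differed between the sexes in 18, all with the female effect lower, and the list median was -0.25. Over all genes tested, 6.6% rose in males and 4.06% in females, and 8.44% had a lower female effect. Rpl35 had 625, 654, 639, 541 and 754 normalized counts in male Val/Val and 815, 873, 994 and 891 in male Met/Met hearts, against 688 to 848 and 634 to 763 in the female genotypes. It rose in males by 0.48 (SE 0.0964) without overlap and the difference was -0.61 (SE 0.127, adjusted p = 0.0429). Rpl38 (-0.81), Rps28 (-0.74) and Rpl19 (-0.68) had larger differences with adjusted p-values from 0.0829 to 0.146. Many pseudogenes copy these transcripts, so single values are uncertain, as is that of Gm4149, a processed pseudogene (-0.61, adjusted p = 0.0408). Of 43 nuclear genes of oxidative phosphorylation, 23 rose in male Met/Met hearts, and in females 1 rose and 1 fell. The effect differed in 15, all with the female effect lower and none by 1.5-fold, with a median of -0.17. Cox8b (-0.43), Cox4i1 (-0.31) and Sdhb (-0.23) had the smallest p. The mitochondrial ribosomal protein gene Mrpl52 had effects of -0.16 in females and 0.56 in males (difference -0.72, SE 0.156, adjusted p = 0.0539). Mitochondrially encoded transcripts did not share this pattern. Of 14, 9 rose in females and 7 in males and 0 fell, with medians of 0.31 and 0.28, and 1 of them, mt-Atp6, differed between the sexes.

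Transcript length moved with these groups and is given beside them, as a description chosen after the data were seen. The longest transcript of each gene in GENCODE M21 was used, for 11823 protein-coding genes in 5 bins of nearly equal number. In males the median Met/Met effect went from 0.11 in the shortest bin (up to 2087 bases) through 0.04, 0.00 and -0.03 to -0.06 in the longest (from 5501 bases). In females it went from -0.04 through -0.03, -0.02 and -0.01 to 0.03. Of the genes in the shortest bin, 18.4% had a lower effect in females at p under 0.05 and 1.39% a higher one, and in the longest bin 3.09% and 10.5%. The ribosomal protein genes have a median length of 1094 bases and the oxidative phosphorylation genes 1306 bases, and their median differences of -0.25 and -0.17 stand beside -0.16 for the whole shortest bin. The class I genes have a median of 2642, the interferon gamma genes 2853 and the clock genes 3985 bases, with median differences of -0.62, -0.43 and -0.43 beside -0.08 and -0.02 for bins 2 and 3. Class II, at a median of 1539 bases, had -0.88. Per heart, the shortest minus the longest bin, relative to the mean of all hearts, was 0.15 to 0.25 in the 4 male Met/Met hearts. It was -0.11 to 0.18 in male Val/Val, -0.13 to 0.22 in female Val/Val and -0.13 to 0.05 in female Met/Met hearts. Male Met/Met hearts therefore overlapped with 1 male and 1 female Val/Val heart. The part of transcript length in the result was not tested.

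**Figure D4:**
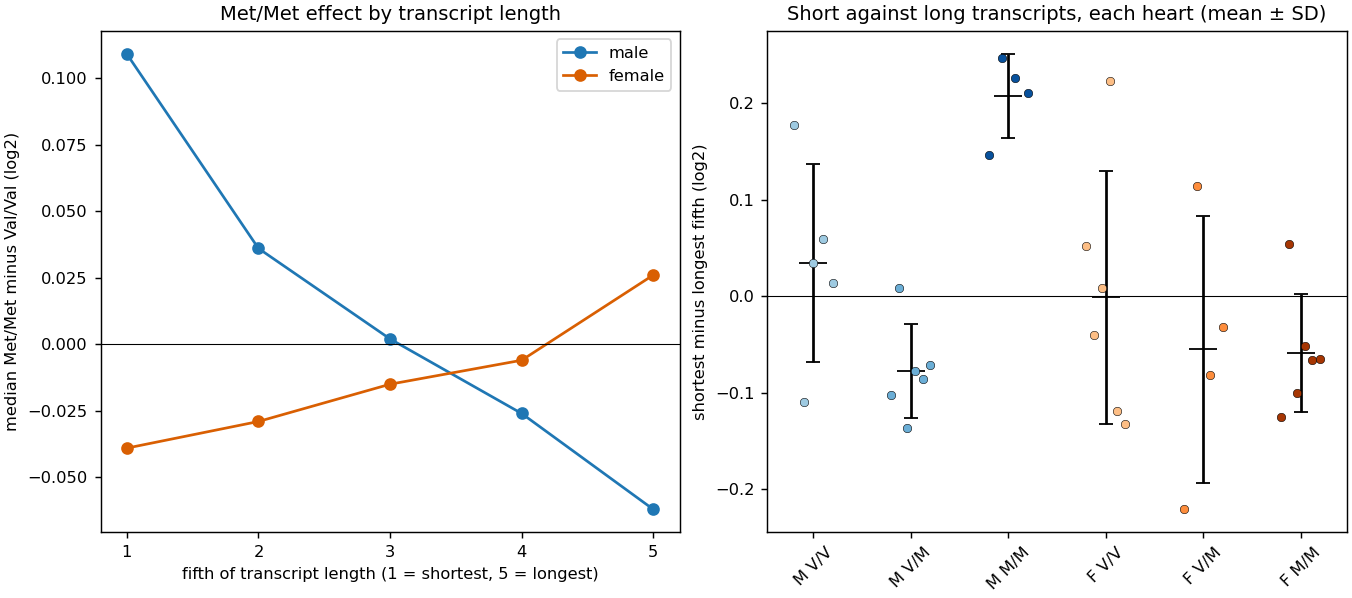
Left, the median Met/Met minus Val/Val difference (log2) of protein-coding genes in 5 bins of transcript length, for males and females. Right, the median of the shortest minus that of the longest bin in each heart (log2, relative to the mean of all 31 hearts), with group mean and SD. The male line falls from 0.11 to -0.06 and the female line rises from -0.04 to 0.03, and the 4 male Met/Met hearts lie at 0.15 to 0.25.

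Protein-folding genes had a positive median difference. Of 34 heat shock and unfolded protein genes, 8 had a higher female effect and 1 a lower one, with a median of 0.17. Together these were 26.5% of the list, beside 14.4% of all genes. The other 25 did not pass, and 0 of the list had an adjusted p under 0.05. Manf, a secreted factor of the endoplasmic reticulum, rose by 0.26 in females and fell by 0.37 on the log2 scale in males (difference 0.63, SE 0.185, adjusted p = 0.151). Hspa5, which encodes the chaperone BiP, had 16031, 17217, 16613, 14342 and 19244 normalized counts in male Val/Val and 12281, 13391, 13652 and 13094 in male Met/Met hearts. It fell in males without overlap and did not pass in females (difference 0.48, adjusted p = 0.151). Hsp90aa1, Dnaja1, Hspa4, Hsp90b1, Dnajb4 and Hspa13 were the others. Herpud1, a part of the degradation machinery at the same membrane, was the exception, falling by 0.55 on the log2 scale in females with 0.01 in males (difference -0.56, SE 0.144, adjusted p = 0.103).

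In most of the other lists the share of genes that differed was near the 14.4% of all genes or below it. It was 16.7% for glycolysis and for calcium handling, 15.8% for the cell cycle and 13.8% for adrenergic and muscarinic signaling. The lists of eNOS signaling and immediate early genes were no farther above it. The members of these lists are therefore given as single values. The share was higher in the stress program (30.8%), fatty acid oxidation (28.1%) and the HIF1A targets (21.7%). In these 3 lists 0 genes had an adjusted p under 0.05. Of 32 genes of fatty acid oxidation, 8 had a lower and 1 a higher female effect, with Cpt1a, the entry step, at -0.24 and the uptake receptor Cd36 at 0.37. Of 24 genes of glycolysis and glucose uptake, 4 were lower, with Pfkfb3 at -0.61, Slc2a1 at -0.38, Gapdh at -0.37 and Pdk2 at -0.26. Calcium handling had 3 of 24 higher and 1 lower, with Cabp1 followed by Atp2a2, the SERCA2 pump, at 0.36, Itpr1 at 0.19 and Hrc at -0.21. Of the stress program, 1 of 13 was higher, Rcan1 (0.31), and 3 were lower, Mt1 (-0.62), Mt2 (-1.01) and Nmrk2 (-0.88). The HIF1A targets had 1 higher and 4 lower of 23, with Hmox1 (-0.80) first, and eNOS signaling had 3 higher and 1 lower of 25. The immediate early genes Junb and Ier3 were lower (2 of 20), as were the replication genes Mcm2 and Mcm5, with Tyms higher (3 of 19 cell cycle genes). The adrenergic and muscarinic list had 2 higher, Rgs5 (0.62) and Adcy4 (0.32), and 2 lower, Adra1a (-0.33) and Pde4b (-0.26), of 29. Of the remaining lists, extracellular matrix had 1 higher (Eln, 0.59) and 1 lower (Col1a1, -0.42) of 38, ion channels and conduction 1 lower (Kcnip2, -0.24) of 31, and neurotrophin signaling 1 higher (Kidins220, 0.35) of 16. Each of these last 3 shares is below the 14.4% of all genes.

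Bdnf itself had a difference of -0.24 (SE 0.278, adjusted p = 0.664). Of the 12 genes named by the study that could be tested, 6 passed, among them Tcap, Cabp1, Irgm1, Atp2a2 and Myl2 (-0.19). Tcap and Cabp1 kept p under 0.05 in all 21 fits with a heart left out, while Myl2 lost it in 11, Irgm1 in 8 and Atp2a2 in 6. Nppb, which encodes the natriuretic peptide BNP, rose in females by 0.76 and changed by 0.12 in males, and the difference of 0.65 (SE 0.417, adjusted p = 0.45) did not pass. Adora2b had a difference of -0.80 (adjusted p = 0.39), and Il10ra, Stat6 and Hif1a had -0.13, -0.07 and 0.15. The study chose these genes on the same hearts, so their count is not independent evidence. Atp2a2 had 591958, 558912, 575198, 575198 and 575198 normalized counts in male Val/Val hearts, and 522819, 493633, 408480 and 472399 in male Met/Met hearts. At the highest values of the table, hearts of a group and set often share 1 value, as male Val/Val replicates 4 and 5 do here, and replicate 3 equals the group mean. The female hearts had 454200 to 742900 in Val/Val and 588700 to 623600 in Met/Met. Atp2a2 thus fell in males, by 0.28 on the log2 scale, and its female effect of 0.07 did not pass. By qPCR relative to GAPDH, the study reported lower Atp2a2 in both sexes, most strongly in Met/Met females. The pattern of the sexes here differs from that report. The qPCR reference Gapdh itself rose by 0.36 in male Met/Met hearts here and changed by -0.01 in females, so the 2 measures are not directly comparable. The part of Gapdh in the mismatch was not tested.

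**Figure D5:**
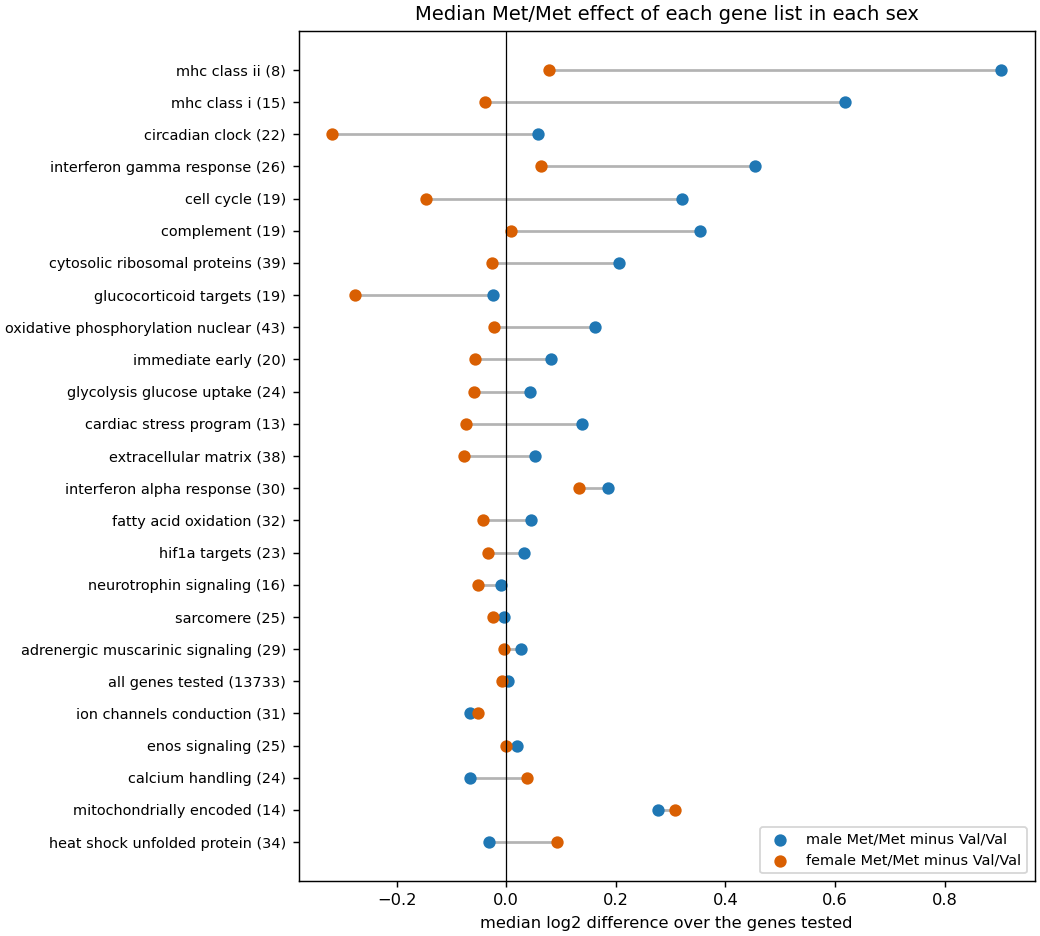
For each gene list (number of genes tested in brackets), the median Met/Met minus Val/Val difference over its genes (log2) in males and in females, ordered by the median difference between the sexes. MHC class II, MHC class I and the interferon gamma response lie to the right in males and near 0 in females, the circadian clock lies to the left in females at -0.32, and all genes tested lie near 0 in both.

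Other markers were less clear. Of 7 mural cell markers, Rgs5 and Notch3 had a higher female effect, and of 9 fibroblast markers 2 had a lower one. All 8 erythroid and platelet markers had a negative difference (median -0.78) and 1, Pf4, passed, while all 7 atrial markers had a negative difference (median -0.63) and 0 passed. The summed erythroid and platelet level ranged from 76970 to 188000 normalized counts in male Met/Met and from 35290 to 130100 in female Met/Met hearts. Of 9 endothelial markers 1 had a higher female effect. Among 4 Schwann cell and neuronal markers Mbp had a lower female effect (-0.69). For epicardial, adipocyte, brown adipocyte and skeletal muscle markers 0 of 7, 0 of 2, 0 of 5 and 0 of 2 passed. Across the genome, called genes were 2.18% to 5.1% of the genes tested on each autosome, the highest on chromosome 17, and 3.53% on chromosome X. Within 10 Mb on either side of Bdnf 14 of 92 genes (15.2%) passed, beside 14.4% of all genes.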

How the data were processed

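RNA from 31 whole hearts was sequenced, and the authors deposited 1 table of normalized counts, a signal for each gene in each heart. Per the study's methods, stranded libraries of total RNA were aligned to mm10 with STAR, quantified with Partek against Ensembl transcripts and scaled by each sample's total reads. The labels name another extraction reagent and another library kit, and the submitters' processing notes give STAR as version 3.5.1a. Equal set means within groups and near-equal quartiles are not accounted for by the steps the study describes, and only 0.719% of values are whole, so no count model was used. The read depth behind a value is unknown.

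Values were taken to log2 after an offset of 0.0001 and fitted with limma 3.58.1 in R 4.3.3 (lmFit, contrasts.fit, eBayes with a trend), with 1 mean per group and library set and 17 residual degrees of freedom. All 31 hearts entered the fit, and 13733 genes with a mean of at least 29 were tested. A gene was called at a 2-sided p under 0.05 and a 1.5-fold difference, and separately where the p adjusted by Benjamini-Hochberg was under 0.05. The procedure was tested on simulated data. Replicates are labelled as separate hearts. The study states that mice were matched by litter within batches, but the labels do not say which hearts share a litter, so hearts were not paired. Same-numbered hearts of different groups had correlated deviations (r over 0.1) in 7 of 22 pairs, and hearts of different numbers in 33 of 110 pairs. The median r was 0.009 for the same number and -0.003 for different numbers.

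The comparison, its members and the gene lists were chosen with earlier results of these data known. The lists were written by hand from general knowledge. Genes were named by rule: the 10 called genes with the smallest p in each direction without a placeholder symbol, the 3 members with the smallest p in each list, the first 10 opposite genes, the genes the study names, and the 5 smallest p in each direction of any symbol. Further members of the clock, antigen presentation, interferon, ribosomal, respiratory and folding lists, the other genes with an adjusted p under 0.05, and markers were named after their values were seen. Xist and Y-linked genes were not analysed here. Positions and lengths come from GENCODE M21 (GRCm38) by symbol, with 13441 of 13733 symbols matched to 1 gene, and promoters from RefSeq. Alternatives changed the model, the hearts, the offset, the minimum mean and the scaling, and left out each heart in turn. Some members of the lists are counted but not reported by name here.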

Additional observations from a re-analysis of the deposited data

Results flagged for a closer look

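The Met/Met effect differed between female and male hearts at an adjusted p under 0.05 (limma, a test of the difference itself) in 31 genes. Called genes with a higher female effect among them were Yy2 (3.61), Gm47644 (1.56), Arntl (1.53), Nfil3 (1.40), Cabp1 (1.34), Dnm3 (0.88), Tmem44 (0.80), Atpsckmt (0.62) and Tmtc2 (0.61), as log2 differences of the effects. Those with a lower female effect were Dbp (-2.23), Bhlhe40 (-1.10), Tcap (-0.99), Pet100 (-0.99), Tcp11l2 (-0.90), Pik3ip1 (-0.81), Tef (-0.66), Stc2 (-0.62), Rpl35 (-0.61) and Gm4149 (-0.61). Yy2 lay under the minimum of 29 in all male Met/Met hearts.

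A single heart stood far from the rest of its group in 2 of 336 combinations of gene and group examined over 84 genes, and chance alone gives about 1 in 20. Atp2a2 was 588700 normalized counts in female Met/Met replicate 2, the lowest of a group in which several hearts share a value. Rcan1 was 2056 normalized counts in female Val/Val replicate 4, the highest of its group.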

How the results depend on the processing

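In place of 486 called genes, the fit of the first library set alone called 138, an offset of 29 gave 285 and a minimum mean of 290 gave 131, without regard to which genes these were. The 31 genes with an adjusted p under 0.05 became 748 with 1 mean per group only, 465 with an additive term for the set, 20 with the 4 groups alone, and 10 without the hearts alone in their group and set, the last chosen after seeing the data. In the first set limma gave 0 such genes, with 346 at an unadjusted p under 0.05. The 53 opposite genes became 116, 94, 4 and 20 with 1 mean per group, the additive term, the first set and the minimum of 290. The 125 female-led genes became 41, 68 and 34 with the first set, the offset of 29 and the minimum of 290, and the 180 male-led genes became 59, 103 and 42, and 273 with 1 mean per group. Fewer hearts or genes enter the first set and the minimum of 290, and an offset of 29 shrinks folds of low genes. Leaving out the hearts alone in their group and set keeps 17 residual degrees of freedom and nearly the same effects, with fewer hearts behind the male means. Without male Val/Val replicate 3 or male Met/Met replicate 4 alone, the 31 also became 10. For the remaining alternatives the cause was not tested.

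With single hearts left out the called genes numbered 341 to 807, those with an adjusted p under 0.05 10 to 45, opposite genes 34 to 76, female-led genes 75 to 250 and male-led genes 121 to 380. Besides the hearts named with the 486 and 31 genes, male Met/Met replicate 2 took the opposite genes to 34, and female Val/Val replicate 4 the female-led genes to 75. Without female Met/Met replicate 2 there were 250 female-led genes, and without male Val/Val or Met/Met replicate 1 there were 380 and 335 male-led genes. The count of 31 fell to between 10 and 19 without any 1 of 16 hearts. Those were all but male Val/Val replicates 1 and 4, male Met/Met replicate 1, female Val/Val replicate 5 and female Met/Met replicate 2.

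With a replicate block the adjusted count was 11. The labels do not tie a number to a litter, and 2 of 19 hearts correlated best with their own number.

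Of 78 genes followed by name with p under 0.05, 36 kept it in all 33 alternative fits, 53 with any single heart left out, and 17 lost it in the first set alone, as Cd74 did. None of the 78 changed direction. In the fits that changed only the set terms or kept the first set, equal set means leave the effects nearly unchanged. A reversal could not arise there. Many of these genes were also named for a small p in the same hearts. List medians near 0 changed sign in some fits (stress program, eNOS signaling, ion channels, adrenergic signaling), and that of cell cycle genes went from -0.39 to 0.03 with a minimum mean of 290. The class I median became -0.39 with that minimum, and the clock median -0.34 without male Met/Met replicate 2.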
